A study of Mus musculus with 14 samples.

Results

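BAFF and APRIL are related ligands of the tumour necrosis factor family that keep B lineage cells alive, and the RNA of this system was read in the spleen of immunized mice. The 5 genes were chosen by name: the ligands Tnfsf13b (BAFF) and Tnfsf13 (APRIL), and the receptors Tnfrsf13c (BAFF-R), Tnfrsf13b (TACI) and Tnfrsf17 (BCMA). A probe was taken for a gene when the RefSeq accession printed for it on the array belonged to that gene. By this rule 4 of the 5 genes had a probe, with 6 probes in all among 56605 on the array, and all 6 were well above background on 14 of 14 arrays. The array carried 22911 genes with a symbol, and 31766 probes, standing for 24908 genes or unnamed transcripts, were bright enough to be tested. Tnfsf13 matched no probe, so APRIL itself was not analysed here.

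The data were 7 spleen samples of WT mice of strain C57BL/6 and 7 of Sting gt/gt mice, each on an array of its own. The labels name spleen, and the paper describes the array material as splenocytes isolated from it. Its cell isolation pressed the organ through a strainer and lysed red blood cells. The labels give an age of 10 to 14 weeks, which by the methods was the age at immunization. Sting gt/gt, also called golden ticket or Tmem173gt, is an allele of the DNA-sensing adaptor STING made by chemical mutagenesis on a C57BL/6 background and is carried in every cell of the animal. Mice of both genotypes had received 1 intradermal injection of chicken collagen type II (CII) in complete Freund's adjuvant (CFA) 2 weeks earlier, so no uninjected group entered the comparison. The WT mice were purchased and the Sting gt/gt mice came from another colony, so genotype and colony cannot be told apart. The question was whether the spleens of both genotypes differed at this early time after immunization.

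BAFF is made mainly by myeloid and stromal cells and is the limiting survival factor for mature B cells, which receive it through BAFF-R. TACI binds BAFF and APRIL and is found mostly on marginal zone and activated B cells, while BCMA prefers APRIL and appears as B cells become antibody-secreting plasma cells. BAFF-R acts chiefly through the alternative NF-κB pathway, in which TRAF3 and NIK control the processing of p100. Tnfsf13b is known as a gene that type I interferon can induce, and STING is one of the routes by which cytosolic DNA leads to that interferon.

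The start regions of the ligand Tnfsf13b and of the receptor Tnfrsf17 are shown because these were the start regions of the 5 genes that held the core letters of an interferon response element, that is GAAA, any 2 bases and GAAA again, and because Tnfrsf17 was the gene whose level separated the genotypes on some of the arrays. Each window runs from 250 bases before to 50 bases after a transcription start and is written 5′ to 3′ on the strand of the gene, from RefSeq on GRCm38.p6. Capitals mark the matches. They are the interferon core in Tnfsf13b, and in Tnfrsf17 the PU.1 box GAGGAA and then the interferon core, both of which lie on the opposite strand and are therefore printed as their reverse complements.
Tnfsf13b, chr8:10006383-10006682, plus strand: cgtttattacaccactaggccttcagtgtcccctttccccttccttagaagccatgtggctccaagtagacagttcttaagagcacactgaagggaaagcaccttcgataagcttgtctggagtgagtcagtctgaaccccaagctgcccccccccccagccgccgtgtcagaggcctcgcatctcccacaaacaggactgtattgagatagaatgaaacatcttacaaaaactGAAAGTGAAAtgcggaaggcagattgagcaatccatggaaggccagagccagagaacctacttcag
Tnfrsf17, chr16:11313559-11313858, plus strand: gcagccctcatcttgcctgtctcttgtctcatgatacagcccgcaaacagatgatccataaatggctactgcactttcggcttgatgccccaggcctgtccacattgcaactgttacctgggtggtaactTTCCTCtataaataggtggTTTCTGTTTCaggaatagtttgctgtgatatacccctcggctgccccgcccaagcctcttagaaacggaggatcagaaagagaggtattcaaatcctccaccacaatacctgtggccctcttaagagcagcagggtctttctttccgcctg

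The Tnfsf13b match began at -16 relative to the start and the Tnfrsf17 match at -101. The interferon core, searched on both strands, was found in 3.44% of 32851 windows of the same kind, and GAGGAA in 28.3% of them. Tnfsf13b has another annotated start, 166 bases upstream, and its window held none of the 4 motifs searched. The windows of Tnfrsf13c, Tnfrsf13b and Tnfsf13 held the κB-like letters GGG, any 5 bases and CC, as did 50.8% of all windows. None of the 5 genes held the composite element of ETS and IRF factors, GGAA, any 2 bases and GAAA, which 2.72% of windows did. A match is a run of letters and not evidence of binding.

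Levels below are log2 signals with the 75th percentile of each array set to 0, so a difference of 1 is a doubling, and a level cannot be set against that of another probe. The 75th percentile of the arrays lay between 562 and 766 intensity units, and 30781 to 34400 probes were well above background on each. Correlations between any pair of arrays lay between 0.972 and 0.991. The arrays were scanned on 2 days, replicates 1 to 3 of both genotypes on scan day 1 and replicates 4 to 7 on scan day 2. On scan day 2 the Sting gt/gt arrays shared slide 6 and the WT arrays lay on slides 4 and 5, so slide and genotype cannot be told apart within that day. The transcript of the altered gene, Sting1, ranged from 2.35 to 2.85 in WT and from 2.45 to 2.77 in Sting gt/gt, and its probe reads RNA level and does not check a single-base allele.

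No gene of the system differed between genotypes over all arrays at the study's threshold, an unadjusted p under 0.05 by limma. The count was 0 of 4 genes, beside 3.46% of all tested genes. Every adjusted p was 1.0 after the Benjamini-Hochberg procedure over all tested probes. The gene with the lowest p was Tnfrsf17, at rank 1120 of 24908, followed by Tnfsf13b at rank 7606, Tnfrsf13c at rank 7994 and Tnfrsf13b at rank 24019.

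Tnfsf13b, the ligand BAFF, did not differ between genotypes beyond the spread of the arrays. Its 7 WT arrays ran from -1.82 to -1.28 with a median of -1.55, and its 7 Sting gt/gt arrays ran from -1.82 to -1.03 with a median of -1.44. The ranges overlapped over most of their length. Means were -1.55 ± 0.21 in WT and -1.42 ± 0.25 in Sting gt/gt (SD, n = 7 each; two-sided exact permutation p = 0.288). The log2 fold change was 0.13 (SE 0.13), with a 95% interval from -0.14 to 0.41, which leaves room for a modest rise or a small fall. The scan day 1 arrays gave a difference of 0.05 and those of scan day 2 one of 0.20, and these differed by 0.15 (SE 0.22, limma adjusted p = 0.764).

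The single probe near APRIL is named by its accession for Tnfsfm13, a read-through gene that joins Tnfsf12, the ligand TWEAK, to Tnfsf13. Tnfsfm13 and Tnfsf13 overlap on chromosome 11, and which of their transcripts the probe detects was not tested. The probe cannot be assigned to Tnfsf13 and is not counted among the 4 genes. Its level ran from 1.43 to 2.04 in WT and from 1.51 to 2.52 in Sting gt/gt, with a log2 fold change of 0.19 (SE 0.15, 95% interval -0.14 to 0.51) and an adjusted p of 1.0.

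Tnfrsf13c, which encodes BAFF-R, was read by a bright and a dim probe, and neither passed the threshold. On probe 1, the bright one, WT arrays ran from 2.08 to 2.83 with a median of 2.65 and Sting gt/gt arrays from 1.95 to 2.62 with a median of 2.38. The ranges of the groups overlapped, and the log2 fold change was -0.15 (SE 0.15, 95% interval -0.47 to 0.17; exact permutation p = 0.331). On probe 2 the log2 fold change was -0.10 (SE 0.22, 95% interval -0.58 to 0.38). The paper lists the protein of Tnfrsf13c as lower in isolated B cells of Sting gt/gt mice. That is another measure, in other cells and at a later time after injection.

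The dim Tnfrsf13c probe moved more between scan days than between genotypes. In WT it was at -3.74, -3.65 and -3.87 on scan day 1 and at -2.74, -2.85, -2.97 and -2.64 on scan day 2. In Sting gt/gt it was at -3.84, -3.56 and -3.27 on scan day 1 and at -2.70, -3.20, -3.12 and -3.48 on scan day 2. All WT arrays of scan day 2 were thus above all WT arrays of scan day 1, by a mean of 0.95, against 0.43 in Sting gt/gt. In the log2 table that the authors deposited these shifts were 0.43 and 0.04. The genotype difference, 0.19 on scan day 1, was -0.32 on scan day 2, and these differed by -0.52 (SE 0.25, adjusted p = 0.299, exact permutation p = 0.0543). On probe 1 the genotype difference was -0.11 and then -0.18 on scan day 2, with an interaction of -0.07 (SE 0.26).

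Tnfrsf13b, which encodes TACI, had the smallest fold change of the 4 genes over all arrays. Probe 1 ran from -1.36 to -0.31 in WT and from -1.20 to -0.29 in Sting gt/gt, and the log2 fold change was -0.0082 (SE 0.19, 95% interval -0.40 to 0.39; exact permutation p = 0.964). Probe 2 had a log2 fold change of 0.02 (SE 0.19, 95% interval -0.39 to 0.44; exact permutation p = 0.918). The sign of either value turned under several ways of processing.

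On the percentile scale Tnfrsf13b probe 1 was lower on scan day 2 in both genotypes, but the deposited table did not show this. The reason for that difference was not tested. On that scale WT was at -0.57, -0.31 and -0.59 on scan day 1 and at -1.14, -1.11, -1.36 and -0.93 on scan day 2, and Sting gt/gt was at -0.71, -0.57 and -0.29 and then at -1.01, -1.20, -1.18 and -1.12. Every array of scan day 2 was below every array of scan day 1, by a mean of -0.64 in WT and -0.61 in Sting gt/gt. In the deposited table the days overlapped for this probe, with mean shifts of -0.03 in WT and 0.06 in Sting gt/gt. For probe 2 the WT arrays overlapped between the days, and their mean shift was -0.30 on the percentile scale and 0.25 in the deposited table. Within scan day 2 the genotype difference of probe 1 was 0.0081, with a 95% interval from -0.25 to 0.27, which is the narrowest interval among the 6 probes on either day. On probe 2 the first day gave a difference of 0.28 and the second one of -0.17, with an interaction of -0.45 (SE 0.26, adjusted p = 0.387, exact permutation p = 0.131).

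**Figure D1:**
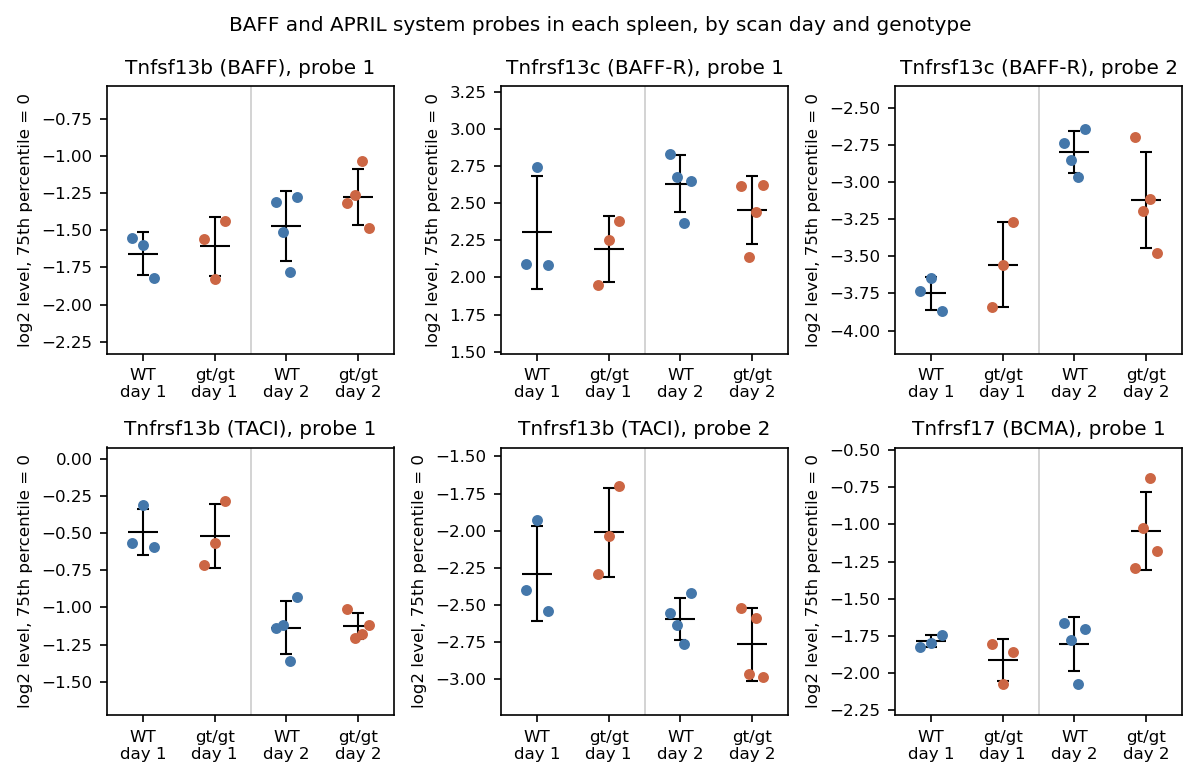
Log2 level of each BAFF and APRIL system probe (vertical axis, 75th percentile of the array set to 0, each panel spanning the same range) for WT (blue) and Sting gt/gt (orange) on scan day 1 (3 arrays each) and scan day 2 (4 arrays each); points are arrays, and bars are the mean and SD. The 4 Sting gt/gt arrays of scan day 2 stand above every other array for Tnfrsf17, while for Tnfrsf13b probe 1 both genotypes are lower on scan day 2 on this scale, which they are not in the deposited table.

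Tnfrsf17, which encodes BCMA, behaved differently on each scan day. On scan day 1 WT was at -1.82, -1.79 and -1.74 and Sting gt/gt at -1.80, -2.08 and -1.86, so the genotypes overlapped. On scan day 2 WT was at -1.67, -1.78, -2.07 and -1.70, while Sting gt/gt was at -1.29, -1.03, -0.69 and -1.18. These 4 Sting gt/gt arrays were higher than all the other arrays of either genotype. From scan day 1 to scan day 2 the WT mean differed by -0.02 and the Sting gt/gt mean by 0.87 on this scale, and by -0.29 and 0.63 in the deposited table.

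Over all arrays the Tnfrsf17 means were -1.80 ± 0.13 in WT and -1.42 ± 0.51 in Sting gt/gt (SD, n = 7 each; exact permutation p = 0.0775). The log2 fold change was 0.38 (SE 0.19, 95% interval -0.02 to 0.78), a 1.3-fold difference that did not pass the threshold (unadjusted p = 0.0618). With scan day in the limma model the same difference passed it (unadjusted p = 0.0265, adjusted p = 0.677), and 7.23% of all genes did so in that model.

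Within scan day 1 the log2 fold change of Tnfrsf17 was -0.13 (SE 0.14, 95% interval -0.45 to 0.20; adjusted p = 0.989). Its exact permutation p was 0.200, where 3 arrays against 3 allow no less than 0.1. Within scan day 2 it was 0.76 (SE 0.15, 95% interval 0.41 to 1.1), or 1.69-fold, with an unadjusted p of 0.000696 and an adjusted p of 0.0507. The exact permutation p was 0.0286, the smallest that 4 arrays against 4 allow. The difference between the days was 0.88 (SE 0.21, 95% interval 0.43 to 1.33; unadjusted p = 0.000929, adjusted p = 0.0690, exact permutation p within days = 0.00286).

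These values stand in a setting where many genes moved. Within scan day 2, 23.4% of all tested genes passed the unadjusted threshold. For 7.31% of genes every Sting gt/gt array of that day was above every WT array. The genotype effect differed between the days for 17.9% of genes. The count of 1 of 4 genes, on scan day 2 and in the comparison of the days, is therefore near the background. Tnfrsf17 was at rank 367 of 24908 by p within scan day 2 and at rank 381 for the difference between the days. On scan day 1, 3.75% of genes and 0 of the 4 passed.

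The scan-day contrast of Tnfrsf17 did not rest on a single array. Leaving out each array of scan day 2 in turn gave log2 fold changes from 0.64 to 0.84, and leaving out each array of scan day 1 gave values from -0.18 to -0.04. In the deposited table the 4 WT arrays of scan day 2 ran from 7.28 to 7.60 and the 4 Sting gt/gt arrays from 7.995 to 8.56, a difference of 0.74. In the same table the difference on scan day 1 was -0.18, and there every Sting gt/gt array (7.45 to 7.73) was below every WT array (7.74 to 7.84). Its exact permutation p was 0.1, the smallest possible, and 3.70% of genes were lower without overlap in that table and day. With slide as a random block over all arrays the genotype difference was 0.11 (adjusted p = 1.0), and with slide as a fixed block it was -0.14, a value that rests on the 5 arrays of slides 1 and 2.

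**Figure D2:**
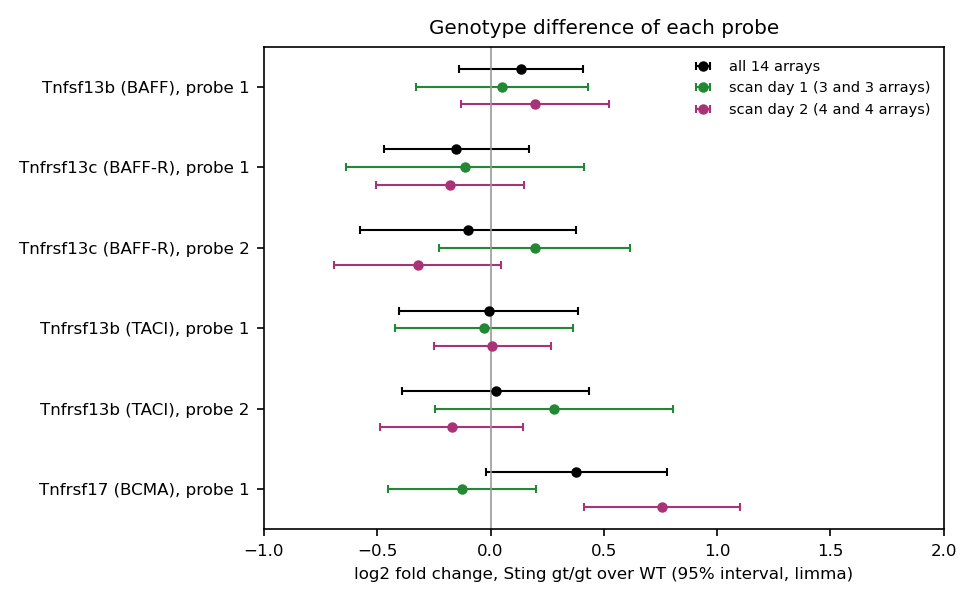
Log2 fold change of Sting gt/gt over WT for each probe (horizontal axis) over all 14 arrays (black), within scan day 1 (green) and within scan day 2 (purple); points are limma estimates and bars their 95% intervals. The intervals cross 0 for all probes except Tnfrsf17 on scan day 2, where the estimate is 0.76.

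The samples are mixtures of spleen cells, so fewer cells of a type and less RNA per cell cannot be told apart. Markers of cell types were therefore read beside the receptors. BCMA belongs to plasma cells, and of 12 plasma cell markers, all tested, 5 were called on scan day 2, all higher in Sting gt/gt, beside 23.4% of all genes called in either direction. These 5 were Sdc1, the syndecan CD138 that is also a docking site for APRIL (log2 fold change 0.84), Derl3 (0.64) and Txndc5 (0.57), which serve protein folding and disposal in the endoplasmic reticulum, Jchain (0.58), the joining chain of secreted IgM and IgA, and Xbp1 (0.30), the transcription factor of the secretory programme. They are named after their values were seen. Prdm1 and Irf4, transcription factors of plasma cell fate, did not pass, at -0.28 and -0.16. Of all 12 genes, 9 were on the higher side that day and 3 on the lower.

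On scan day 1, 3 of the 12 were called, all lower in Sting gt/gt, beside 3.75% of all genes. They were Jchain (-0.33), Derl3 (-0.67) and Creb3l2 (-0.48), and of all 12 genes 4 were on the higher side and 8 on the lower. The genotype effect differed between the days for 6 of 12, all toward Sting gt/gt on scan day 2, beside 17.9% of all genes, and Sdc1 did so after adjustment (difference between days 1.06, adjusted p = 0.0470). The summed level of the 12 genes, in multiples of the 75th percentile signal, is mostly that of Tent5c and Jchain, which made up 65.6% to 79.3% of it. It was 178 to 195 in WT and 151 to 173 in Sting gt/gt on scan day 1. On scan day 2 it was 145 to 177 in WT and 169 to 243 in Sting gt/gt. Tnfrsf17 and the 5 markers called on scan day 2 were higher in Sting gt/gt that day, while 3 of the 12 markers were on the lower side. The part of plasma cell content in the Tnfrsf17 result was not tested.

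Of 13 B cell markers tested, 8 were called on scan day 2, all lower in Sting gt/gt, beside 23.4% of all genes called in either direction. The genotype effect differed between the days for 9 of the 13, and on scan day 1 the values of 11 were on the higher side, 1 of them called. On scan day 2 the median change of the list was -0.39 on the log2 scale, against 0.02 over all tested genes. Cd79b, the brightest of them and a signalling chain of the B cell receptor, was at -0.49 that day and at 0.20 on scan day 1. The summed level of the 13 genes was 159 to 222 in WT and 128 to 153 in Sting gt/gt on scan day 2, without overlap, and 126 to 170 against 134 to 188 on scan day 1. The receptor of resting B cells, Tnfrsf13c, was at -0.18 on probe 1 and -0.32 on probe 2 on scan day 2. That is the direction of the B cell markers but short of the threshold. On scan day 1 it was at -0.11 on probe 1 and 0.19 on probe 2, where the marker list had a median of 0.21. Tnfrsf13b was at 0.0081 on probe 1 and -0.17 on probe 2 on scan day 2, and at -0.03 and 0.28 on scan day 1. The receptors thus did not follow the markers on every probe and day. The part of B cell content in the receptor values was not tested.

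**Figure D3:**
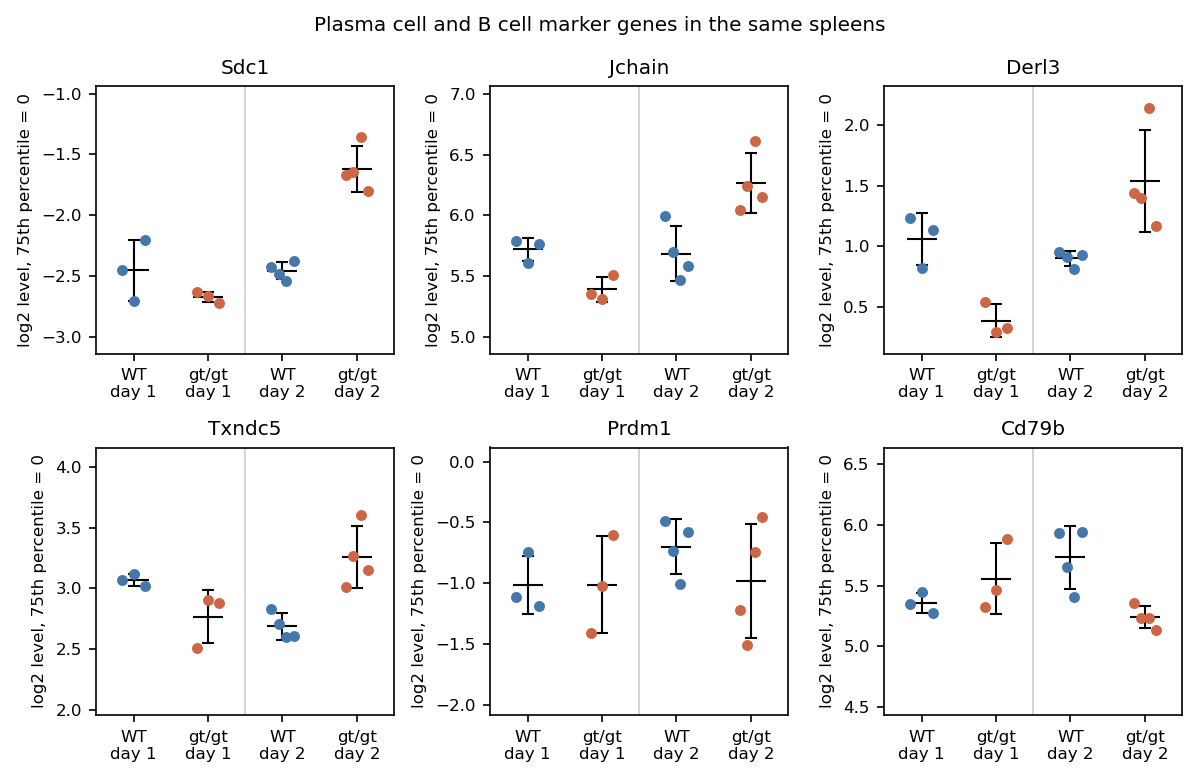
Log2 level (75th percentile of the array set to 0) of 5 plasma cell markers and of the B cell marker Cd79b on the same arrays, drawn as in the plot of the receptor probes, with blue for WT, orange for Sting gt/gt, and the mean and SD as bars. Sdc1, Jchain, Derl3 and Txndc5 are higher in every Sting gt/gt array than in every WT array of scan day 2, Prdm1 overlaps, and Cd79b is lower. Of all tested genes, 7.31% were higher without overlap that day. The 5 plasma cell markers drawn are part of a list of 12.

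Markers of other cell types that a spleen holds were read as well. Over all arrays the brightest gene of each list described here was Tent5c for plasma cells (-0.14), Cd79b for B cells (-0.19), Lck for T cells (0.07), Ly6c2 for monocytes and macrophages (0.19), S100a9 for neutrophils (0.07), Siglech for dendritic cells (-0.10) and Cxcl12 for stroma (0.14), and none passed. Myeloid and stromal cells are the usual sources of BAFF. How much stroma the isolated splenocytes kept was not tested. On scan day 2 none of 10 monocyte and macrophage markers was called, and the count was 3 of 9 for neutrophils (2 higher and 1 lower), 2 of 10 for dendritic cells (1 each way) and 2 of 9 for stroma (both higher). These counts stand beside 23.4% of all genes called that day.

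Genes that work around the ligands and receptors were read from a list of 53 grouped by role, of which 50 were tested. None was called over all arrays: 24 were higher and 26 lower, and their median change was -0.01 on the log2 scale, against 0.02 over all tested genes. Among genes that process or hold the ligands, Sdc1 had the lowest p (log2 fold change 0.39, SE 0.21). In the γ-secretase complex, which sheds BCMA from the cell surface, all 4 tested genes were on the higher side and Aph1a had the lowest p (0.18, SE 0.10). Among the adaptors it was Myd88 (0.18, SE 0.14), which TACI can recruit.

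In the alternative NF-κB pathway, the chief route of BAFF-R, the lowest p belonged to Nfkb2, which encodes p100 (-0.10, SE 0.11), and 3 of 4 genes were on the lower side. In the classical pathway it was Nfkb1, which encodes p105 (0.13, SE 0.15). Among survival genes it was the kinase Akt1 (0.13, SE 0.09), and among B cell surface and differentiation genes it was Cr2, the complement receptor CD21 (-0.18, SE 0.16). Each adjusted p was 1.0.

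By scan day, 2 of the 50 were called on scan day 1 and 9 on scan day 2, beside 3.75% and 23.4% of all genes. On scan day 1 Fcer2a, the IgE receptor CD23 (0.57), and Icosl, the ligand of ICOS (0.40), were higher in Sting gt/gt. On scan day 2 the higher genes were Furin, the protease that releases both ligands (0.28), Sdc1 (0.84), Aph1a (0.33), Myd88 (0.25), Nfkb1 (0.35) and Rela (0.24), the last a classical NF-κB subunit. The lower genes were the adaptor Traf5 (-0.30), the survival gene Bcl2l1 (-0.31) and Icosl (-0.51). The genotype effect differed between the days for 7 of the 50, beside 17.9% of all genes, with Furin, Sdc1 and Rela moving up and Otud7b, Fcer2a, Icosl and Cd40 moving down on scan day 2. These names were chosen after the values were seen. Each gene was read by its brightest probe, and the other tested probes did not always follow. The other probe of Rela, a dim one, was at 0.26 on scan day 1 and -0.06 on scan day 2. That of Icosl was at 0.04 and -0.14. Those of Sdc1 (0.83) and Traf5 (-0.26) kept their direction on scan day 2, as did all other tested probes of Aph1a and Bcl2l1.

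**Figure D4:**
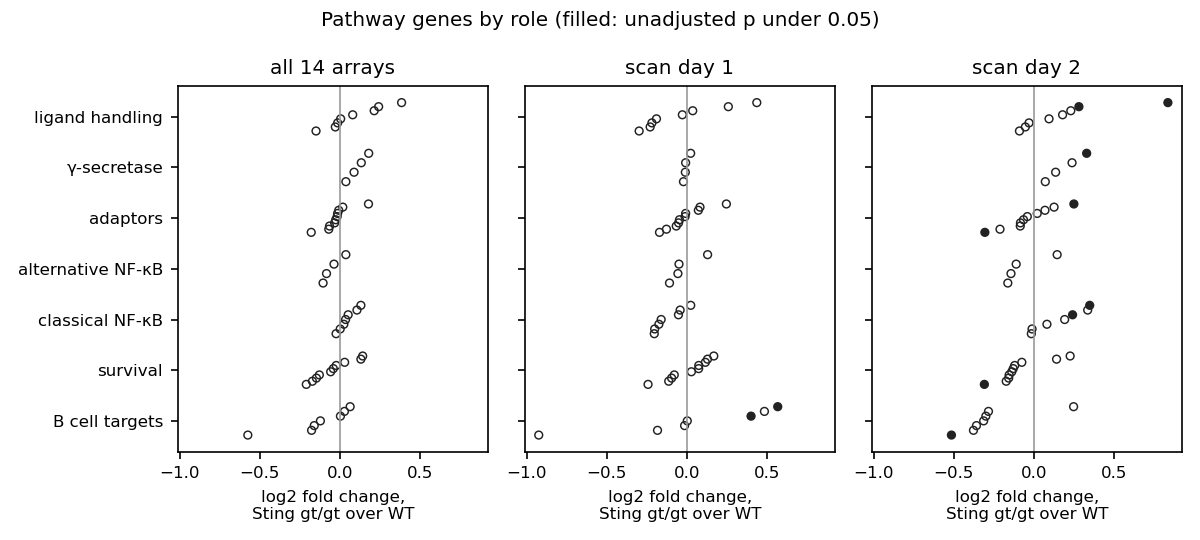
Log2 fold change of Sting gt/gt over WT (horizontal axis) for the 50 tested genes around the BAFF and APRIL system, in rows by role, over all 14 arrays and within each scan day; each point is a gene read by its brightest probe, and filled points have an unadjusted limma p under 0.05. No point is filled over all arrays, 2 are filled on scan day 1 and 9 on scan day 2.

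After the mean of each genotype and scan day was taken off, the genes whose levels ran most like those of each member over the 14 arrays were sought by correlation. Tnfrsf13c ran with Malt1 (Pearson r = 0.97), a protease of antigen receptor signalling, Ttll3 (0.97) and Klf12 (0.96). Tnfrsf13b ran with Ell3 (0.96), 0610009L18Rik (0.93) and Cd22 (0.93), an inhibitory receptor of B cells. Tnfsf13b ran with Rnf13 (0.93), Aldh5a1 (0.92) and Glipr1 (0.91), and Tnfrsf17 with Prpmp5 (0.90), Gm1715 (0.89) and Lin37 (0.87). The genotype differences of these last 3 genes on scan day 2 were -0.13, 0.28 and -0.05, against 0.76 for Tnfrsf17 itself. These correlations are descriptions over arrays that share scan days and slides. They are the highest among all tested genes with a symbol, so high values can arise from the selection alone.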

How the data were processed

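Spleen RNA of 7 WT and 7 Sting gt/gt mice was hybridised to 1-colour Agilent arrays, 1 sample per array. The authors deposited spot intensity values from Agilent Feature Extraction 11.0.1.1 (submitters' processing notes) and a log2 table with nearly the same distribution in every column, whose normalization method is not given in the sources used here. The processed intensity, already background-subtracted by the scanner software, was used. Flagged outlier spots and control spots were left out, log2 was taken, the 75th percentile of each array was set to 0, and spots of a probe were averaged. Subtracting a percentile removes differences in overall brightness and would also remove a shift shared by most genes.

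Probes that stood well above background on 7 or more of the 14 arrays were tested in 1 limma fit (3.58.1, R 4.3.3) without covariates, and calls were made at an unadjusted p of 0.05, as in the study, with Benjamini-Hochberg adjustment over all probes. A gene was counted by its brightest tested probe. Scan days were compared by an interaction term and by two-sided exact permutation within days. The fit was checked on simulated data with a scan-day shift shared by both genotypes and no slide effect. That check does not bear on slides or on genotype effects that differ between the days. Each array stands for 1 mouse, so p-values measure the spread between animals, which in the main fit includes scan day. Slide enters that spread only in part. On scan day 2 no slide held both genotypes, so a slide effect there falls in the genotype difference. The number of arrays limits the precision, and no spot was saturated.

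Gene names came from array accessions looked up in RefSeq, which named 32994 probes (58.3%). Members, role lists and marker lists were chosen with earlier results of these data known. Named genes were all member probes, called list genes or else the one with the lowest p in a role group or the brightest in a marker list, and the 3 genes most correlated with each member. The genes Bcl2a1a, Bcl2a1b, Ighm, Trac, Ly6g and Ahsp were not analysed here, having matched no probe, and some genes that the lists and the naming rule cover are not reported here.

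Replicate numbers were checked for pairing: deviations of same-numbered arrays from their group means correlated at 0.15 to 0.52, and at -0.40 to 0.28 once scan-day means were removed, so the pairing comes with the scan day read from the file headers. Alternatives were other scalings, background correction, filters, probe summaries, the deposited table, array weights, the methods' tests, blocks for replicate, scan day and slide, single scan days and leaving out each array. The within-day fits without single arrays and the within-day use of the deposited table were added after seeing the data.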

Additional observations from a re-analysis of the deposited data

Results flagged for a closer look

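For Tnfrsf17 the genotype effect was opposite in sign on each scan day, -0.13 on scan day 1 and 0.76 on scan day 2, and the difference between them was 0.88 (SE 0.21) with an unadjusted limma interaction p of 0.000929 and an adjusted p of 0.0690. For the same probe WT replicate 6, at -2.07, was the lowest of the 7 WT arrays by a gap of 0.611 of the group's range, above Dixon's 95% critical value. Without that array the scan day 2 difference was 0.67. For Tnfrsf13b probe 2, WT replicate 2, at -1.93, was the highest of the WT arrays by a gap of 0.571 of the range, and probe 1 showed no such gap. Chance marks about 1 in 20 groups in this way.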

How the results depend on the processing

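No member gene was called over all arrays in the fit as reported, and 1 of 4, Tnfrsf17, was called with the deposited log2 table (log2 fold change 0.35), with array weights plus an intensity trend (0.58), with scan day as a fixed block (0.38) and within scan day 2 (0.76). Leaving out 1 array at a time gave 0 to 1 member calls, the call appearing without Sting gt/gt replicate 1 (0.44), 2 (0.49) or 3 (0.45). With the replicate block, which follows the pairing by number, the Tnfrsf17 difference was 0.38 with an unadjusted limma p of 0.0706, and 0 members and 0 pathway genes were called, so it changed no call. The direction of Tnfrsf17 turned within scan day 1 (-0.13) and with slide as a fixed block (-0.14). Its difference between scan days was called under all 24 alternatives run, at 0.75 to 1.01.

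Tnfrsf13b lies near 0 and changed sign easily: probe 1 was at 0.014 with quantile normalization, 0.0015 with normexp, 0.013 in the deposited table, 0.0070 as the mean of its probes, 0.023 with array weights, 0.0081 within scan day 2 and 0.019 with a random slide block, and between -0.11 and 0.083 with 1 array left out. Probe 2 was at -0.032 without scaling, at -0.17 within scan day 2 and between -0.10 and 0.11 with 1 array left out. Tnfrsf13c probe 2 turned to 0.19 within scan day 1 and 0.047 with slide as a fixed block, where Tnfsfm13 was at -0.0037. Tnfsf13b stayed positive (0.0074 to 0.20) and Tnfrsf13c probe 1 negative (-0.22 to -0.08) under the 32 alternatives run, and neither passed the threshold.

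Pathway calls were 0 as reported, 2 with normexp, 2 in the deposited table, 6 with array weights, 1 by the Mann-Whitney test, 1 with scan day as a fixed block, 2 within scan day 1, 9 within scan day 2 and 0 to 4 with 1 array left out, the highest count being without Sting gt/gt replicate 1. Over all probes 1091 were called as reported, 1825 with the replicate block, 2325 with scan day as a fixed block, 2455 in the deposited table, 5728 with array weights, 7209 within scan day 2, 591 with a random slide block and 624 to 2457 with 1 array left out, the last without Sting gt/gt replicate 1. The causes of these changes were not tested. The dim Tnfrsf13c probe had 40.2 to 123 intensity units, the lowest of the 6, so its values are the least firm.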
